A study of Arabidopsis thaliana with 6 samples.

Results

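miR164 and miR396 are small RNAs of plants that pair with messenger RNAs of transcription factor families, NAC genes for miR164 and GRF genes for miR396. Their levels were read from small RNA sequencing of 3 ein2-1 and 3 Col-0 libraries of Arabidopsis thaliana. They were chosen from the deposited sheet of predicted target sites as every entry with sites in at least 3 of the NAC genes ORE1, NAC1, CUC1 and CUC2, or with sites of an expectation of at most 4 in at least 3 of GRF1, GRF2, GRF3 and GRF4. The expectation is the psRNATarget penalty of a site, which is 0 for a perfect match and was at most 5.0 in the sheet. The rule found 3 of 178 entries, and these hold 2 of 142 distinct mature sequences. miR164a/b-5p is carried by 2 entries with identical counts, which were counted once, and had sites in 4 of 4 of these NAC genes. miR396a-5p is carried by 1 entry and had sites in 4 of 4 of these GRF genes. No other entry had a site in any of the 8 genes, so none lay just outside the limits.

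Plants of the ein2-1 line are mutant for EIN2, which relays the ethylene signal between the receptors and the nucleus, and they do not respond to ethylene. Col-0 is the wild type it was compared with. Plants of both genotypes were 14-day-old seedlings, which were put under water for 1 hour before leaf explants were cut and kept on CIM, a callus-inducing medium, for 7 days. The upper portion of the explants was sampled, so each library holds RNA of a mixed tissue, in which fewer cells with a miRNA and less of it per cell cannot be told apart. No untreated or unsubmerged explants were part of the comparison, and the small RNA table holds no messenger RNA, so the levels of EIN2 and of the target genes were not measured here. Cell type markers could not be read from it either.

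A plant miRNA is cut from the stem of a folded precursor RNA, is loaded into an Argonaute protein, and directs the cleavage or the translational repression of transcripts with which it pairs along nearly its whole length. miR164 limits NAC transcription factors that set organ boundaries (CUC1, CUC2), lateral root growth (NAC1) and leaf senescence (ORE1), and in ageing leaves EIN2 has been placed upstream of a decline of miR164. miR396 limits growth-regulating factors (GRF), which act with GIF coactivators to keep leaf cells dividing.

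The mature sequences are shown because the target sites below are read against them, with the seed, bases 2 to 8 from the 5′ end, in capitals. The family members miR164c-5p and miR396b-5p stand in the reference and are shown for comparison. Neither was among the entries as a sequence of its own.
miR164a/b-5p: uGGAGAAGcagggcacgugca
miR164c-5p: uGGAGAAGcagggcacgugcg
miR396a-5p: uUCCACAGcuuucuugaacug
miR396b-5p: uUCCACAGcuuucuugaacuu
Counted from the 5′ end of the measured sequence, miR164c-5p differs from it by A21G and miR396b-5p by G21U. Within each family the seed is thus shared, and no other entry of the table had either seed or lay within 2 substitutions of either miRNA. Reads of miR164a and miR164b cannot be told apart, because the mature sequences are the same. The counting method is not known here, so whether reads of miR164c-5p or miR396b-5p, which differ at the last base alone, were counted under these entries was not tested.

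The precursors show where each sequence is made (RefSeq, build TAIR10.1, mature 21 bases in capitals). MIR164a (AT2G47585) lies at chr2:19520752-19520864 on the plus strand and is 113 bases long. MIR164b (AT5G01747) lies at chr5:287584-287736 on the plus strand and is 153 bases long. MIR396a (AT2G10606) lies at chr2:4142323-4142473 on the minus strand and is 151 bases long.
MIR164a: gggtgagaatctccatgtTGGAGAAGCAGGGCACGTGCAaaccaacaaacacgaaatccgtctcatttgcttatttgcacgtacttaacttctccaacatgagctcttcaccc
MIR164b: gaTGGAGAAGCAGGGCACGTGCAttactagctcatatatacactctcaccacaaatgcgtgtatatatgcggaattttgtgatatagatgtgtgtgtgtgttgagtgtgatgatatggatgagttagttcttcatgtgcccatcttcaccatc
MIR396a: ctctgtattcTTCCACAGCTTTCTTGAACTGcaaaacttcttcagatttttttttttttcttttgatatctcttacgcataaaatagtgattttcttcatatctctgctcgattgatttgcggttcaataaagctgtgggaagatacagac
In all 3 precursors the measured sequence lay in the 5′ arm, at bases 19 to 39 of MIR164a, 3 to 23 of MIR164b and 11 to 31 of MIR396a. The opposite strands of these precursors were not among the entries.

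The sites of miR164 in the NAC genes are shown 5′ to 3′ on the messenger RNA, so that their right end pairs with the 5′ end of the miRNA. Capitals mark bases that form no Watson-Crick pair with it.
ANAC080: uUUacgugcccugcuucucca
ANAC100: uCUacgugcccugcuucucca
NAC1: AgcacguAcccugcuucucca
CUC1 and CUC2: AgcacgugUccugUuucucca
ORE1: CUcacgugAccugcuucuccG
Of the 7 genes of the NAC list, 6 had a miR164 site, and CUC3, a boundary gene related to CUC1 and CUC2, had none. The best sites were those of ANAC080 (AT5G07680) and ANAC100 (AT5G61430), each with an expectation of 0.5 and 19 Watson-Crick pairs of 21. NAC1 (AT1G56010) had an expectation of 1.0 and 19 such pairs. The boundary genes CUC1 (AT3G15170) and CUC2 (AT5G53950) carried the same 21 bases, with an expectation of 1.0 and 18 Watson-Crick pairs. ORE1 (AT5G39610), the senescence regulator, had the weakest site of the 6, with an expectation of 2.0 and 17 pairs. Its mismatches faced positions 13, 20 and 21 of the miRNA, and a G:U pair faced position 1. The pairing with the seed was without mismatch in all 6 genes, with a G:U pair opposite position 8 in CUC1 and CUC2.

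All 6 NAC sites lay in coding sequence, within 1 exon, and started at codon position 2. Between 59.8% and 73.5% of the coding sequence came before the site, and that exon was the last of the matched transcript in each gene. On build TAIR10.1 the ORE1 site lies at chr5:15858797-15858817 on the minus strand in exon 3 of 3, and that of NAC1 at chr1:20947142-20947162 on the minus strand in exon 2 of 2. The CUC1 site lies at chr3:5111137-5111157 on the plus strand and that of CUC2 at chr5:21902301-21902321 on the minus strand, each in exon 3 of 3. The sites of ANAC080, at chr5:2436958-2436978 on the plus strand, and of ANAC100, at chr5:24701687-24701707 on the minus strand, lie in exon 3 of 3 as well. Among the 6 genes there were 5 distinct sites, with the same base at 14 of 21 positions and no identical run longer than 6 bases.

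The sites of miR396a in the GRF genes are set out in the same way, and here the capitals also mark the extra base that bulges out of the pairing. BHLH74, a bHLH gene known as a further target of miR396, is added because its site is built differently.
GRF1 and GRF2: UCguucaagaaagcCuguggaa
GRF3 and GRF4: cCguucaagaaagcCuguggaa
GRF7 and GRF8: UCguucaagaaagcAuguggaa
GRF9: ACguucaagaaagcuUguggaa
BHLH74: UGgAAcaagaaagcuguggaG
Of the 9 genes of the GRF list, 7 had a miR396a site, while GRF5 and GRF6 had none. Each of the 7 sites had an expectation of 3.0, was 22 bases long and held 1 bulged base. The deposited alignment places it 3′ of miRNA position 7 in 6 genes and of position 6 in GRF9. In GRF9 the bulged base stands beside an identical base, as it does in GRF1 to GRF4, so either could be the extra one. The different place in GRF9 is thus a choice of the alignment. GRF3 (AT2G36400) and GRF4 (AT3G52910) had 20 Watson-Crick pairs, and the other 5 had 19. The sites were less varied than those of the NAC genes, with 4 distinct sequences, the same base at 20 of 22 positions and an identical run of 13 bases. BHLH74 (AT1G10120) had an expectation of 2.5 with 21 bases, no bulge and 16 Watson-Crick pairs, and its site spans the junction of exons 1 and 2.

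All 7 GRF sites lay in coding sequence, within 1 exon, and started at codon position 3, with between 28.5% and 56.4% of the coding sequence before them. The GRF1 site (AT2G22840) lies at chr2:9729944-9729965 on the plus strand, and that of GRF2 (AT4G37740) at chr4:17726404-17726425 on the minus strand, each in exon 3 of 4. Those of GRF3, at chr2:15271745-15271766, and GRF4, at chr3:19617293-19617314, lie on the minus strand and in exon 3 of 4. GRF7 (AT5G53660) has its site at chr5:21795145-21795166 on the plus strand, in exon 2 of 3. GRF8 (AT4G24150) has it at chr4:12538649-12538670 on the plus strand, in exon 5 of 6, and GRF9 (AT2G45480) at chr2:18746292-18746313 on the plus strand, in exon 3 of 5.

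The predicted targets of both miRNAs reached far beyond these lists. miR164 had sites in 103 genes, of which 5 had an expectation of at most 1, 7 of at most 2 and 66 of at most 4. miR396a had sites in 97 genes, of which 0 had an expectation of at most 1, 4 of at most 2 and 77 of at most 4. The NAC genes made up 6 of the 7 best genes of miR164, and genes outside the GRF list had the lowest expectations of miR396a. This is a description, since 4 of the 6 NAC genes and 4 of the 7 GRF genes served to choose the miRNAs. No gene carried sites of both. Most sites were marked by the authors as cleavage sites, with 158 of 173 for miR164 and 167 of 183 for miR396a, where a site counts once for each transcript.

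**Figure D1:**
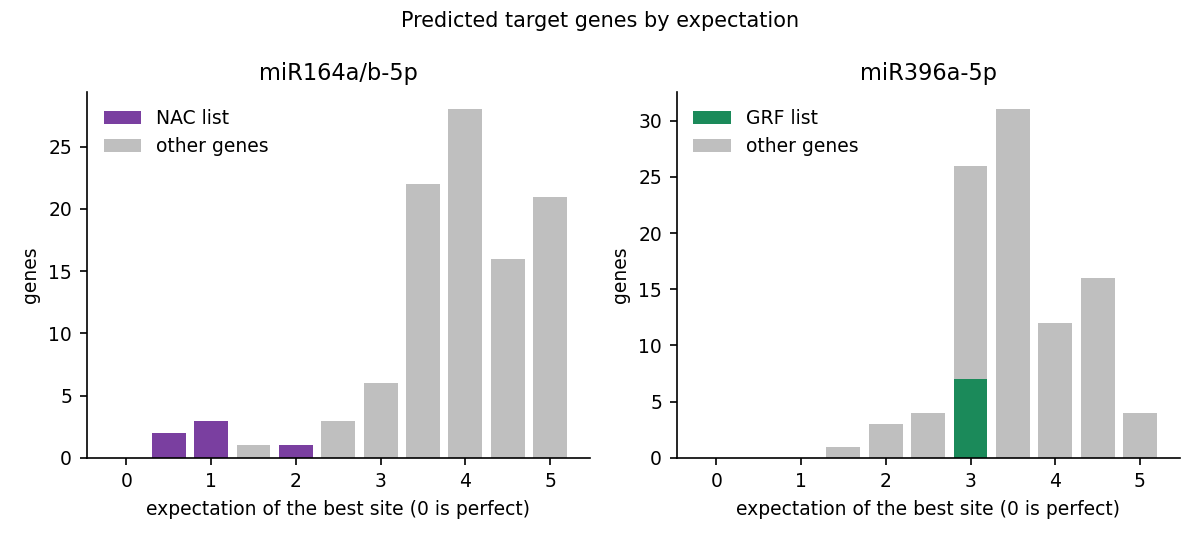
Number of genes (vertical axis) by the expectation of their best predicted site (horizontal axis, 0 is perfect), for miR164a/b-5p on the left and miR396a-5p on the right, with the genes of the NAC or GRF list in colour and all other genes in grey. The 6 NAC genes stand at the low end, at 0.5 to 2.0, while the 7 GRF genes stand together at 3.0 among other genes.

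The remaining gene among the 7 best of miR164 was AT3G12977, which the sheet describes as a NAC-domain gene and which had an expectation of 1.5 in exon 3 of 3. Its site is shown because it starts at codon position 2, like those of the 6 listed NAC genes.
AT3G12977: AgcaUguAcccugcuucucca
Next came BRI1, the brassinosteroid receptor, AT1G10530 and AT1G56225, each with an expectation of 2.5, and then WNK7, a protein kinase, with 3.0 in an untranslated region, which is 1 of 6 genes tied at that value. For miR396a the lowest expectations were 1.5 for ACI1, 2.0 for AT2G15630, AT2G34530 and RD21B, a cysteine protease, and 2.5 for TPS10, of the trehalose phosphate synthase family, which is 1 of 3 unlisted genes tied at that value. Of the other listed genes, 0 of 3 GIF coactivators and 0 of 5 ethylene and senescence genes (EIN2, EIN3, EIL1, ORS1 and NAP) had a site of either miRNA. Together, 14 listed genes had a site, of which 8 are the genes by which the miRNAs were chosen and 6 are not. The count was also 14 at expectations of at most 4 and of at most 3, which for those 8 genes is in part set by the choice.

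Summed over entries, the counts came to 1163907, 1882664 and 1430472 in ein2-1, against 940058, 559411 and 569132 in Col-0. These sums include repeats, because some mature sequences are carried by several entries. With the repeats left out, the libraries had 606476, 987089 and 739601 counts in ein2-1, against 556692, 333025 and 337045 in Col-0. The scale on which libraries are compared matters for both miRNAs. Scaling by the trimmed mean of M values (TMM), which assumes that most sequences do not change, gave factors of 0.737 to 0.853 in ein2-1 and 1.20 to 1.32 in Col-0. That assumption is in doubt here, since 66.9% of the 118 distinct sequences tested on this scale were called as changed. The levels are therefore given first as raw counts, then as TMM-scaled counts per 1000000 (CPM), and then as a share of all counts over distinct sequences, in which each sequence was counted once. All 6 pairs of libraries of 1 genotype differed by more than counting noise. No spike-in is named, and a common shift of all sequences was thus not measured.

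miR164a/b-5p was a scarce sequence, and its levels lay apart between the genotypes on the TMM scale and not as a share of the counts. It had 54, 71 and 61 raw counts in ein2-1 libraries, against 38, 29 and 31 in Col-0 libraries. With exact Poisson 95% intervals, which cover counting error only, the highest count of 71 spans 55.5 to 89.6 and the lowest of 29 spans 19.4 to 41.6. By level it held places 45 to 51 of 142 sequences in ein2-1, and 60 to 65 in Col-0.

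After TMM scaling miR164 stood at 54.4, 48.8 and 57.9 CPM in ein2-1, against 33.6, 40.1 and 41.2 CPM in Col-0. The lowest ein2-1 library was above the highest Col-0 library, with means of 53.7 ± 4.59 and 38.3 ± 4.10 CPM (SD, n = 3 each). Among the 118 distinct sequences tested, 35.6% were likewise higher in every ein2-1 library, so that this order is common in the table. As a share of the distinct-sequence total, miR164 had 89.0, 71.9 and 82.5 CPM in ein2-1, against 68.3, 87.1 and 92.0 CPM in Col-0. On that scale the genotypes overlapped, with means of 81.1 ± 8.63 and 82.4 ± 12.5 (SD, n = 3 each).

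miR396a-5p was among the most abundant sequences, at place 6 in each ein2-1 library and at places 4, 5 and 4 in Col-0. It had 19105, 36847 and 23108 raw counts in ein2-1 libraries, against 29194, 15304 and 17482 in Col-0 libraries. After TMM scaling its level was 19255, 25320 and 21931 CPM in ein2-1, against 25806, 21162 and 23220 CPM in Col-0. The genotypes overlapped, with means of 22169 ± 3040 and 23396 ± 2327 CPM (SD, n = 3 each).

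As a share of the distinct-sequence total, miR396a took 3.15%, 3.73% and 3.12% in ein2-1, against 5.24%, 4.60% and 5.19% in Col-0. On that scale every ein2-1 library was below every Col-0 library, with means of 3.34% ± 0.344 and 5.01% ± 0.359 (SD, n = 3 each). Of the distinct sequences tested, 44.1% had shares that were lower in every ein2-1 library. The 2 scales thus exchange the picture for the pair, since miR164 is apart and miR396a overlaps on the TMM scale, and the reverse holds for shares.

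**Figure D2:**
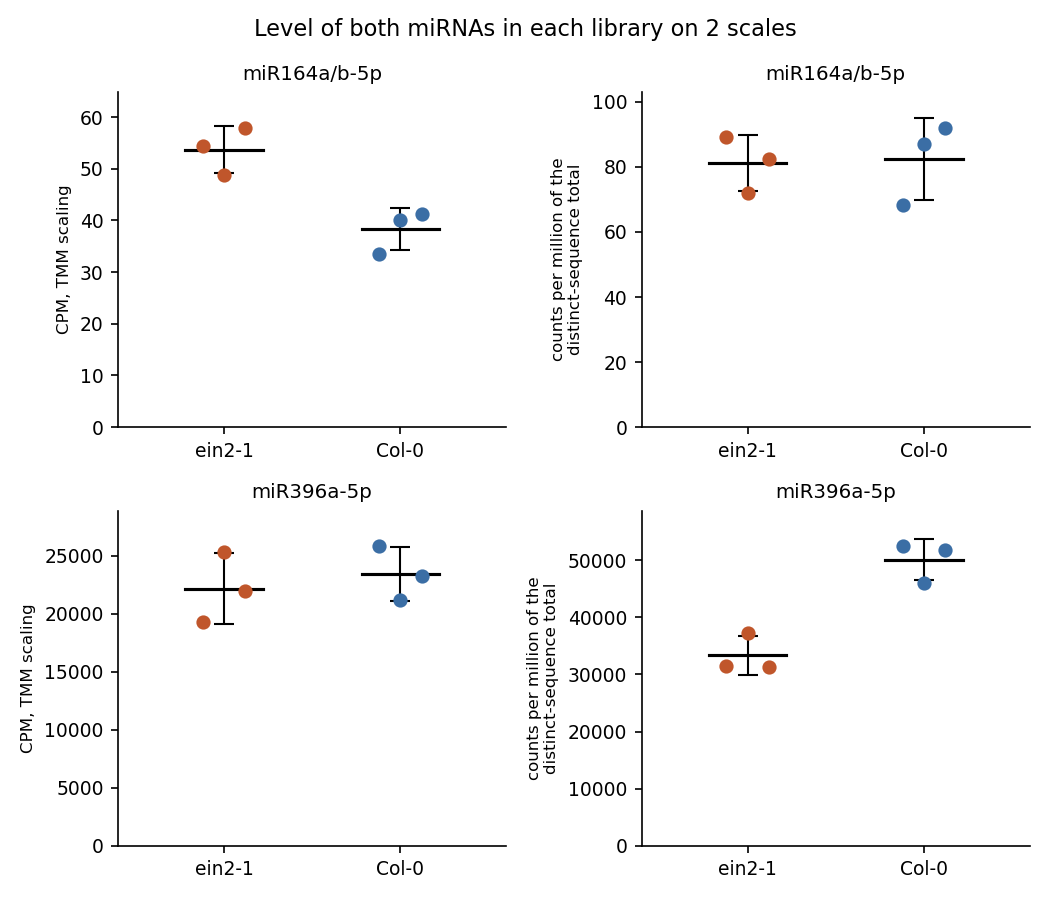
Levels of miR164a/b-5p (top) and miR396a-5p (bottom) in each library, as TMM-scaled CPM on the left and as CPM of the distinct-sequence total on the right, with ein2-1 left of Col-0. Points are libraries, the long bar is the mean and the whiskers are 1 SD. The genotypes are apart for miR164 on the left only and for miR396a on the right only.

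In the edgeR quasi-likelihood test across all entries neither miRNA passed the adjusted p threshold of 0.05, against 66.9% of the 118 distinct sequences that did in either direction, 34.7% that did as higher in ein2-1 and 32.2% as lower. miR164 had a log2 fold change (ein2-1 over Col-0) that came to 0.49 (SE 0.25, 95% interval -0.04 to 1.03), which is 1.41-fold (0.970 to 2.04), with an adjusted p of 0.0889. miR396a had a log2 fold change of -0.08 (SE 0.15, 95% interval -0.40 to 0.24), which is 0.948-fold (0.758 to 1.19), with an adjusted p of 0.654. Without adjustment the p-values were 0.0691 and 0.612, so 0 of 2 were below 0.05 there too. DESeq2 and limma-voom also called 0 of 2, whereas edgeR's likelihood ratio test on all entries called miR164, at 0.65 with an adjusted p of 0.0105. That test called 50 of 142 distinct sequences higher in ein2-1 and 35 lower. In the reported fit the interval of miR164 included no difference.

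Among the tested sequences the fold change of miR164 was exceeded by 47 and that of miR396a by 64, while the median over all was 0.06 on the log2 scale. Relative to that median, miR164 stood 0.44 above and miR396a at -0.13. Within each genotype both miRNAs varied less between the 3 libraries than most sequences did. This is a description, since the sequences compared were not matched for level. The SD of log2 CPM was 0.12 in ein2-1 and 0.16 in Col-0 for miR164, and 0.20 and 0.14 for miR396a, beside medians over all tested sequences of 0.33 in ein2-1 and 0.24 in Col-0.

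**Figure D3:**
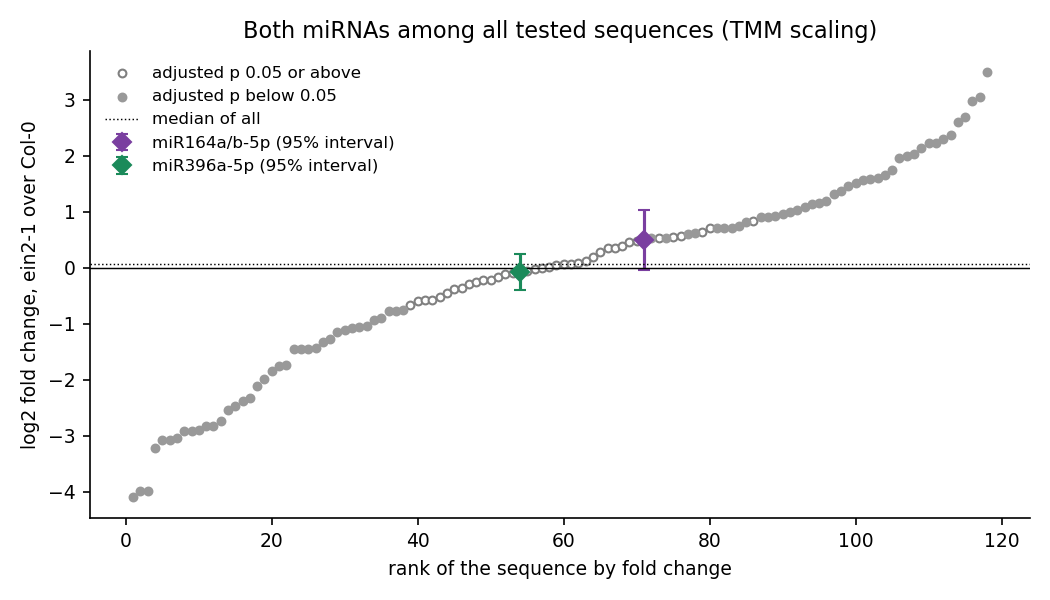
Log2 fold change, ein2-1 against Col-0 (vertical axis, TMM scaling) of the 118 tested sequences in order of fold change (horizontal axis), with filled grey points for an adjusted p below 0.05 and open points for the others. The diamonds are miR164a/b-5p at 0.49 and miR396a-5p at -0.08 with 95% intervals, and both lie in the middle of the range near the dotted median of 0.06.

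The sign and the call differed between scales. With library-size scaling miR164 had a log2 fold change of -0.20 (adjusted p = 0.465, edgeR) and miR396a one of -0.77 (adjusted p = 5.0e-05, edgeR), so that miR396a passed the threshold. Under that scaling 59 of the 118 tested distinct sequences were called lower in ein2-1 and 21 higher. With the most abundant sequence left out of the totals before TMM scaling, miR164 had 0.80 (adjusted p = 0.0103, edgeR) and miR396a 0.21 (adjusted p = 0.440, edgeR). In that fit 50 distinct sequences were called higher in ein2-1 and 33 lower. Library-size scaling moved the median over all tested sequences to -0.64, and leaving out the most abundant sequence moved it to 0.34. Relative to the median of its own fit, miR164 was above it in 18 of 18 alternatives, by 0.19 to 0.51, and miR396a was below it in 18 of 18, at -0.34 to -0.07. These alternatives refit the same libraries, and a shift of scale common to all sequences drops out of this difference. Their agreement is thus a description and adds no independent support. The call for miR164 also turned on single libraries, since without Col-0 replicate 2 it had 0.72 (adjusted p = 0.0318, edgeR) and without Col-0 replicate 3 it had 0.71 (adjusted p = 0.0406, edgeR). Those fits called 47 and 46 distinct sequences higher in ein2-1.

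**Figure D4:**
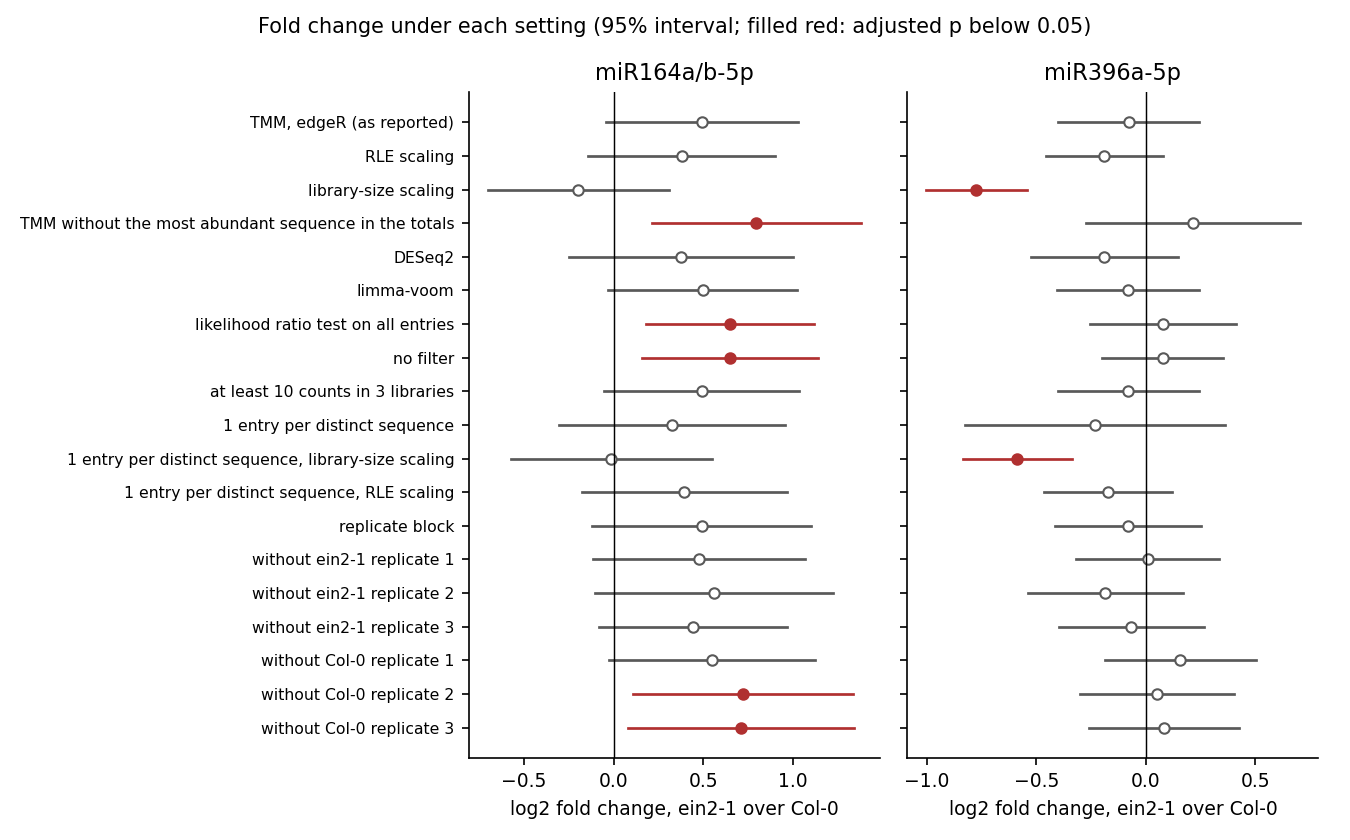
Log2 fold change, ein2-1 against Col-0 (horizontal axis) with its 95% interval for miR164a/b-5p on the left and miR396a-5p on the right, under the reported fit (top) and each alternative, with filled red points for an adjusted p below 0.05. miR164 lies between -0.20 and 0.80, and miR396a between -0.77 and 0.21.

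The authors' deposited table gave miR164 a log2 fold change of 0.65 with an FDR of 0.0104. In the authors' deposited table the normalised scores of miR164 were 63, 51 and 57 in ein2-1, against 32, 38 and 39 in Col-0. Below an FDR of 0.05 in the authors' deposited table were 61.3% of the 142 distinct sequences, with 36.6% higher in ein2-1. For miR396a the authors' deposited table gave a log2 fold change of 0.08 with an FDR of 0.665. Neither miRNA was in the authors' short list of 46 entries, in which the smallest size of a log2 fold change in the authors' deposited table was 1.06 and the highest FDR 0.000897.

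A ratio of the members within a library does not depend on the scale. Per 10000 counts of miR396a there were 28.3, 19.3 and 26.4 counts of miR164 in ein2-1, against 13.02, 18.9 and 17.7 in Col-0. The genotypes did not overlap, but the lowest ein2-1 library and the highest Col-0 library were close. How many other pairs of sequences have ratios that lie apart was not counted. Of single sequences tested, 66.9% had TMM-scaled levels that did not overlap, in either direction. The log2 ratio, with a pseudocount of 0.5, averaged -8.67 ± 0.30 in ein2-1 and -9.23 ± 0.29 in Col-0 (SD, n = 3 each). The difference of 0.56, or 1.48-fold, had a two-sided p of 0.10 in the exact permutation test over libraries, the smallest that 3 against 3 can give. With a pseudocount of 5 the genotypes overlapped, and the difference of 0.48 had a p of 0.20 in the same test.

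**Figure D5:**
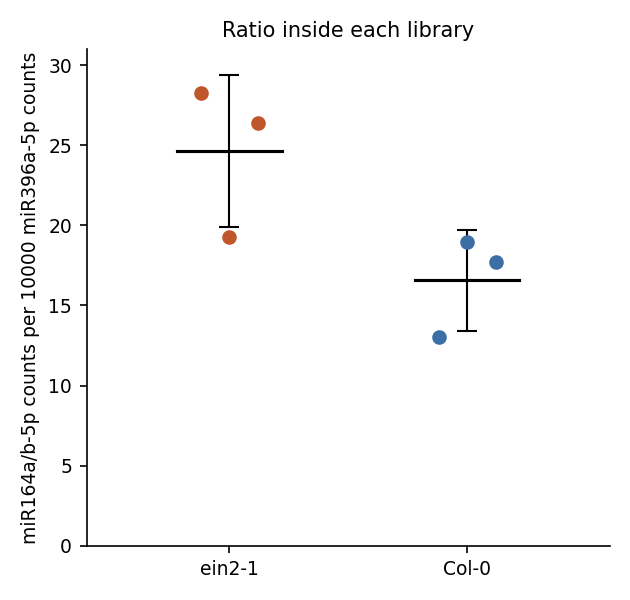
Counts of miR164a/b-5p per 10000 counts of miR396a-5p (vertical axis) in each library, with ein2-1 left of Col-0. Points are libraries, the long bar is the mean and the whiskers are 1 SD. The ein2-1 libraries range over 19.3 to 28.3 and the Col-0 libraries over 13.02 to 18.9.

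The sequences most like each member over the 6 libraries were found by the root mean square difference of log2 CPM, each centred on its own mean, for which the median over all tested sequences was 0.64 for miR164 and 0.65 for miR396a. Closest to miR164 was miR162a/b-3p, which acts on DCL1, the enzyme that cuts miRNA precursors, at a difference of 0.10. It had a log2 fold change of 0.38 (adjusted p = 0.0622, edgeR). Next was miR408-3p, which acts on transcripts of copper proteins, at a difference of 0.12 and with a log2 fold change of 0.53 (adjusted p = 0.0130, edgeR). It was followed by miR157a/b/c-5p, which acts on SPL genes of the juvenile to adult change, at a difference of 0.15 and with a log2 fold change of 0.35 (adjusted p = 0.0811, edgeR). Closest to miR396a were miR158a-3p at 0.14, the MIR447a/b product at 0.21 and the MIR865 product at 0.22, with log2 fold changes of 0.11, 0.19 and 0.05. miR164 and miR396a differed from each other by 0.37, which put miR396a at place 24 from miR164 and miR164 at place 21 from miR396a. These are descriptions over 6 libraries that share their depth and scaling.

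miR319 acts on TCP transcription factors, which are known to act upstream of MIR164 and MIR396 genes. The mature miR319a/b and a product of the MIR319c precursor, which matches no annotated mature miRNA, both fell in ein2-1. They did so under all 19 settings of the fit, the reported one included. Whether the MIR319c product acts on TCP genes was not tested. Of all 118 tested sequences, 32.2% were called lower in ein2-1. The MIR319c product had 524.1, 362.1 and 252.5 CPM in ein2-1, against 3145, 3468 and 3032 CPM in Col-0. Its log2 fold change was -3.08 (SE 0.25, adjusted p = 2.0e-07, edgeR). miR319a/b had 2392, 2609 and 3834 CPM in ein2-1, against 15326, 15393 and 13691 CPM in Col-0. Its log2 fold change was -2.33 (SE 0.19, adjusted p = 2.0e-07, edgeR), and neither sequence had genotypes that overlapped, as held for 66.9% of the tested sequences in either direction.

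Other small RNAs also had predicted sites in some of the listed genes, and over the whole sheet 7800 genes had a site of any entry. In the NAC list 1 other sequence had a site, an unannotated one of 24 bases in ANAC080 at an expectation of 5.0, and in the GRF list there was none. That sequence also had a site in BHLH74 at 4.5, and its log2 fold change was -0.23 (adjusted p = 0.516, edgeR). In the GIF list, GIF2 had sites of miR158a-3p and of an unannotated sequence of 24 bases that was too scarce to be tested, each at 4.5. Of the 5 other sequences with a site in a listed gene that could be tested, 3 fell in ein2-1, under all 19 settings, beside 32.2% of all 118 tested sequences that were called lower. miR781a/b, with a site in NAP, a NAC gene of leaf senescence, at an expectation of 3.5, had a log2 fold change of -1.46 (adjusted p = 7.5e-05, edgeR). miR167a-3p, with a site in EIN2 at 4.5, had one of -1.07 (adjusted p = 7.0e-05, edgeR). The MIR1888b product, with a site in BHLH74 at 4.5, had one of -2.12 (adjusted p = 2.1e-05, edgeR). The sites are predictions, and no transcript level stands beside them.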

How the data were processed

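Small RNA was sequenced from 3 ein2-1 and 3 Col-0 libraries, called biological replicates in the series text, so p-values measure the spread between these samples. The submitters' processing notes name cutadapt for adapters and TAIR10 as build. How reads were aligned and counted was not given in the sources used. The authors deposited raw counts per miRNA entry, and normalised values, here called a score, scaled to a library size and rounded. Their comparison holds, per the file headers, a log2 fold change, a likelihood ratio score, a p-value and an FDR, and their target sheet gives the psRNATarget expectation score with the start and end of each of 23944 pairs of entry and site.

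The test of raw counts was that of edgeR 4.0.16 (R 4.3.3, quasi-likelihood, TMM, filterByExpr defaults, genotype as the only term, two-sided, Benjamini-Hochberg adjusted over all 153 entries tested, threshold 0.05). These held 118 distinct sequences. Alternatives used limma 3.58.1, DESeq2 1.42.0, other scalings and filters, and each library left out in turn. The test was checked on simulated data, in which fewer sequences changed than were called here. As many were raised as lowered there, and each sequence was entered once. That check therefore does not cover the doubt about TMM scaling in these libraries. Exact tests used scipy 1.17.1 with numpy 2.4.6. Python 3.11.15 with pandas 2.3.3 made the tables, and matplotlib 3.10.9 the figures. Mature sequences and sites were placed by exact match on RefSeq TAIR10.1. A site was placed in the reference transcript that matched the target ID, and pairing was recomputed from the aligned sequences. It equalled the deposited alignment in 308 of 356 lines, and in the other 48 the deposited alignment marks fewer pairs. Among the 14 listed sites 10 were equal, and GRF1, GRF2, GRF7 and GRF8 differed by the G:U pair at position 21.

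Named were both members, all genes of the fixed lists, the 5 genes beyond them with the lowest expectation per member (ties in order of gene ID), the 3 sequences most like each member, and miR319. The members and lists were chosen with earlier results of these data known.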

Additional observations from a re-analysis of the deposited data

How the results depend on the processing

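miR164 had a log2 fold change of 0.49 as reported and reversed under library-size scaling, to -0.20 with all entries and to -0.0115 with each distinct sequence entered once. It passed the threshold at 0.80 with TMM without the most abundant sequence in the totals, at 0.65 with the likelihood ratio test on all entries and at 0.65 with no filter. In these fits, in that order, 50, 50 and 51 distinct sequences were called higher in ein2-1. With each library left out in turn miR164 ranged from 0.44 to 0.72. miR396a, at -0.08 as reported, passed the threshold under library-size scaling, at -0.77 with all entries and at -0.59 with each distinct sequence entered once. Called lower in ein2-1 in these fits were 59 and 50 distinct sequences. The value of miR396a reversed, without passing, to 0.21 with TMM without the most abundant sequence, 0.0776 with the likelihood ratio test and 0.0776 with no filter. With libraries left out it ranged from -0.19 to 0.16. Because the cause of these moves was not tested, only the values are given. RLE scaling, DESeq2, limma-voom and a filter of at least 10 counts in 3 libraries kept both signs and both calls. So did TMM with each distinct sequence entered once, but with a smaller value for miR164. There miR164 was at 0.33 (adjusted p = 0.368, edgeR) and miR396a at -0.23 (adjusted p = 0.503, edgeR).

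Of 153 entries, 111 passed as reported, and these hold 79 distinct sequences. With each distinct sequence entered once, 63 of 120 passed under TMM, 73 under library-size scaling and 78 under RLE scaling. With a library left out, 103 to 118 entries passed. Of these calls 51.4% were higher in ein2-1 as reported, against 29.9% under library-size scaling, 58.5% with TMM without the most abundant sequence, 57.5% with the likelihood ratio test and 58.3% with no filter. With each distinct sequence entered once it was 39.7% under TMM, 31.5% under library-size scaling and 50.0% under RLE scaling. The log2 ratio of the members differed by 0.40 to 0.73 with a library left out, where the smallest exact p that can be had is 0.20, and by 0.48 with a pseudocount of 5. With that pseudocount the genotypes overlapped, and the p of the exact permutation test was 0.20, against 0.10 as reported. Replicates of the same number deviated together with correlations of 0.21, -0.03 and 0.16, so the numbers were not taken as pairs. With a replicate block, miR164 was at 0.49 (adjusted p = 0.142, edgeR), miR396a at -0.08 (adjusted p = 0.673, edgeR), the ratio at 0.56, and 110 entries passed. The 29 to 71 counts of miR164 per library limit its precision.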
